A study of Mus musculus with 8 samples.

Results

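The genes described are 9 transcription regulators of the trophectoderm, the outer epithelium of the mouse blastocyst that founds the placenta: Cdx2, Eomes, Elf5, Tfap2a, Tfap2c, Klf5, Hand1, Id2 and Ets2. They were taken by symbol from the 23234 genes listed for every library, and all 9 were found. Gata factors were not among them. RNA-seq was made from pools of whole embryos in 8 libraries, 2 for each of 4 groups: Tet3-null and wild-type blastocysts (pools of 7 embryos, collected 96 h after fertilization), and Tet3-null and wild-type 2-cell embryos (pools of 10, at 30 h). Tet3-null embryos came from oocytes of superovulated females with a floxed and a null Tet3 allele and a Zp3-Cre transgene, a driver active in growing oocytes, and wild-type embryos came from f/f females, in which both alleles are floxed. The labels do not say whether the f/f females carried Cre. All embryos were made by in vitro fertilization with CAST/EiJ sperm and grown in KSOM, so every group also carried a paternal Tet3 allele and was a hybrid of strains. The name Tet3-null therefore refers to the oocyte.

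In the early embryo, cells that end up outside shut off Hippo signalling. The coactivator Yap1 then enters the nucleus, where it acts with Tead4 to switch on Cdx2 and other trophectoderm genes. Cdx2 is a homeobox protein that maintains this lineage and represses inner cell mass genes. Eomes, a T-box factor, and Elf5, an Ets factor, act in the trophoblast stem cell program, in which the Elf5 promoter is unmethylated while it is methylated in embryonic stem cells. Tfap2a and Tfap2c are AP-2 factors, and Tfap2c is required for trophectoderm formation. Klf5 is a Krüppel-like zinc finger protein needed by the blastocyst, Hand1 a basic helix-loop-helix factor of trophoblast giant cells, Id2 a helix-loop-helix protein without a DNA-binding region that blocks such factors and marks outer cells early, and Ets2 a factor of trophoblast stem cells. Tet3 is a dioxygenase that converts methylated cytosine of the zygotic genome to oxidized forms, and comparing the genotypes asks what its loss from the oocyte changes in later transcript levels.

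The 250 bases upstream of the annotated start are shown for the members whose levels differed most by genotype in blastocysts, as far as an entry was found (Eomes, Id2 and Elf5), and for Cdx2, whose levels overlapped. Since the enzyme acts on methylated cytosine, CpG sites are in capitals and the rest in lower case. Sequences are those of RefSeq on GRCm38.p6, 5′ to 3′ on the strand of the gene, and 6 of the 9 members had an entry, with 8 start sites in all. Expression values were made on another build, mm9, and no coordinate below was used for them.
Eomes, chr9:118477939-118478188, plus strand: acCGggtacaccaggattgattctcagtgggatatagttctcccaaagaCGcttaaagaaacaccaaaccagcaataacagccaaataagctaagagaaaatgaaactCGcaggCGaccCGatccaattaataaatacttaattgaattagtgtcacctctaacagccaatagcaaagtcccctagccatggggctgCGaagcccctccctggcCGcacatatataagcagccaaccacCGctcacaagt
Id2, chr12:25096093-25096342, minus strand: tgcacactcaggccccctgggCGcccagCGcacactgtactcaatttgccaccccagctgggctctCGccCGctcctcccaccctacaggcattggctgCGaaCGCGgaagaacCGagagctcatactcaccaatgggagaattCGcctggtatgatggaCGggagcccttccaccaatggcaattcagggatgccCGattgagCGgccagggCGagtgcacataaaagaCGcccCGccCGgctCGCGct
Elf5, first listed start, chr2:103411848-103412097, plus strand: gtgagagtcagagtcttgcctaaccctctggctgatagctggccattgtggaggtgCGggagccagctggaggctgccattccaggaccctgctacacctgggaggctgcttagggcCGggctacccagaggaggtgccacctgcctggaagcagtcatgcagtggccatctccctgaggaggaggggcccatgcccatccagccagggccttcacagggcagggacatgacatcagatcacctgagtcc
Elf5, second listed start, chr2:103423818-103424067, plus strand: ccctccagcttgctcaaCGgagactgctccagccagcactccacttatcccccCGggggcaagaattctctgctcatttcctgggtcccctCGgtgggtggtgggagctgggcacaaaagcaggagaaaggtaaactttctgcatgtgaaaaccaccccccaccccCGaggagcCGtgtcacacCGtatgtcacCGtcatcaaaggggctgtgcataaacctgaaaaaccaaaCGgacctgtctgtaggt
Cdx2, chr5:147307250-147307499, minus strand: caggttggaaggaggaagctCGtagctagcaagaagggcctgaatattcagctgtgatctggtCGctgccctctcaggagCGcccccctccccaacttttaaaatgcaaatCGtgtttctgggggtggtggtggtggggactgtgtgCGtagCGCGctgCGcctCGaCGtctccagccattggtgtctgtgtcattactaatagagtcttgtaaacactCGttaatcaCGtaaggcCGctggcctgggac

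These windows differed in CpG content. The Id2 window held 18 CpG sites and that of Cdx2 held 13, against a median of 6 over the 32851 promoter windows of that length in the table. Eomes had 8 sites, and the Elf5 windows had 2 at the first and 8 at the second listed start. Each Tfap2a start had 10 sites and Ets2 had 25, more than 89.3% of all windows. The sites in the first Elf5 window came to 0.0814 of the number that its C and G content would give by chance, against 0.744 for Id2. The letters GGAATG, the core of a Tead site, were searched on both strands and were found once in the first Elf5 window and in no other window of a member; 12.6% of all windows hold them. Searches for 3 other motifs, the Gata core, the E-box and the Nfy box, are given with Gata2, Hand1 and Id2. A match says only that the letters are present, and no methylation was measured in these libraries.

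Values are FPKM, fragments scaled by gene length and by library size as the authors deposited them, so that levels of different genes can be compared per length. Fold changes are ratios of mean FPKM, and tests were made with limma on log2(FPKM + 1) of the 13549 genes that reached 1 FPKM in 2 or more libraries. A gene is called at a Benjamini-Hochberg adjusted p under 0.05 over all of them, two-sided. Of the members, 8 passed this filter. Ets2 did not, with 1 library at 1 FPKM or more. Cdx2 passed only through the blastocyst libraries, Elf5 only through wild-type blastocysts and Hand1 only through 2-cell libraries, so for these 3 genes a difference between the groups in question was partly set by the filter. Eomes, Tfap2a, Tfap2c, Klf5 and Id2 were at 1 FPKM or more in all 8 libraries. The labels do not say whether the libraries of a group came from separate collections, so p-values reflect no more than how these libraries vary, and part of that may be technical.

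The targeted gene, Tet3, was lower in Tet3-null 2-cell embryos, at 3.28 and 4.41 FPKM, against 10.8 and 7.54 FPKM in wild-type. In blastocysts it overlapped, at 0.519 and 0.412 FPKM in Tet3-null and 0.957 and 0.459 FPKM in wild-type, so it gives no check of the labels there. The labels do not say which exons are deleted, and a value for the whole gene may not measure that part. Stage markers followed the labels: Zscan4d, a 2-cell gene, was at 77.3 to 150 FPKM in 2-cell libraries and listed at 0 in all blastocyst libraries, while the trophectoderm keratin gene Krt18 was at 1985 to 3138 FPKM in blastocysts and 4.27 to 11.9 FPKM in 2-cell embryos. Tet3-null 2-cell replicate 2 stood apart. Its Pearson's r with replicate 1 across genes was 0.9426, against 0.963 to 0.9822 for the other pairs of a group. Transcripts of 4 Y-linked genes summed to 0.158 FPKM in it, against 24.9 to 34.2 FPKM in the other 2-cell libraries. The sex-linked levels also differed by genotype in blastocysts: the same sum measured 98.0 and 90.7 FPKM in the Tet3-null pools and 52.9 and 48.3 FPKM in wild-type, and Xist was at 6.36 and 4.64 FPKM in Tet3-null, against 16.6 and 14.6 FPKM in wild-type. The part of embryo sex in the results below was not tested. Read depth is known only as a ratio to the first wild-type library of each stage, estimated from genes with very low values, and was 1 to 1.29 in blastocyst libraries and 1 to 1.22 in 2-cell libraries.

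**Figure D1:**
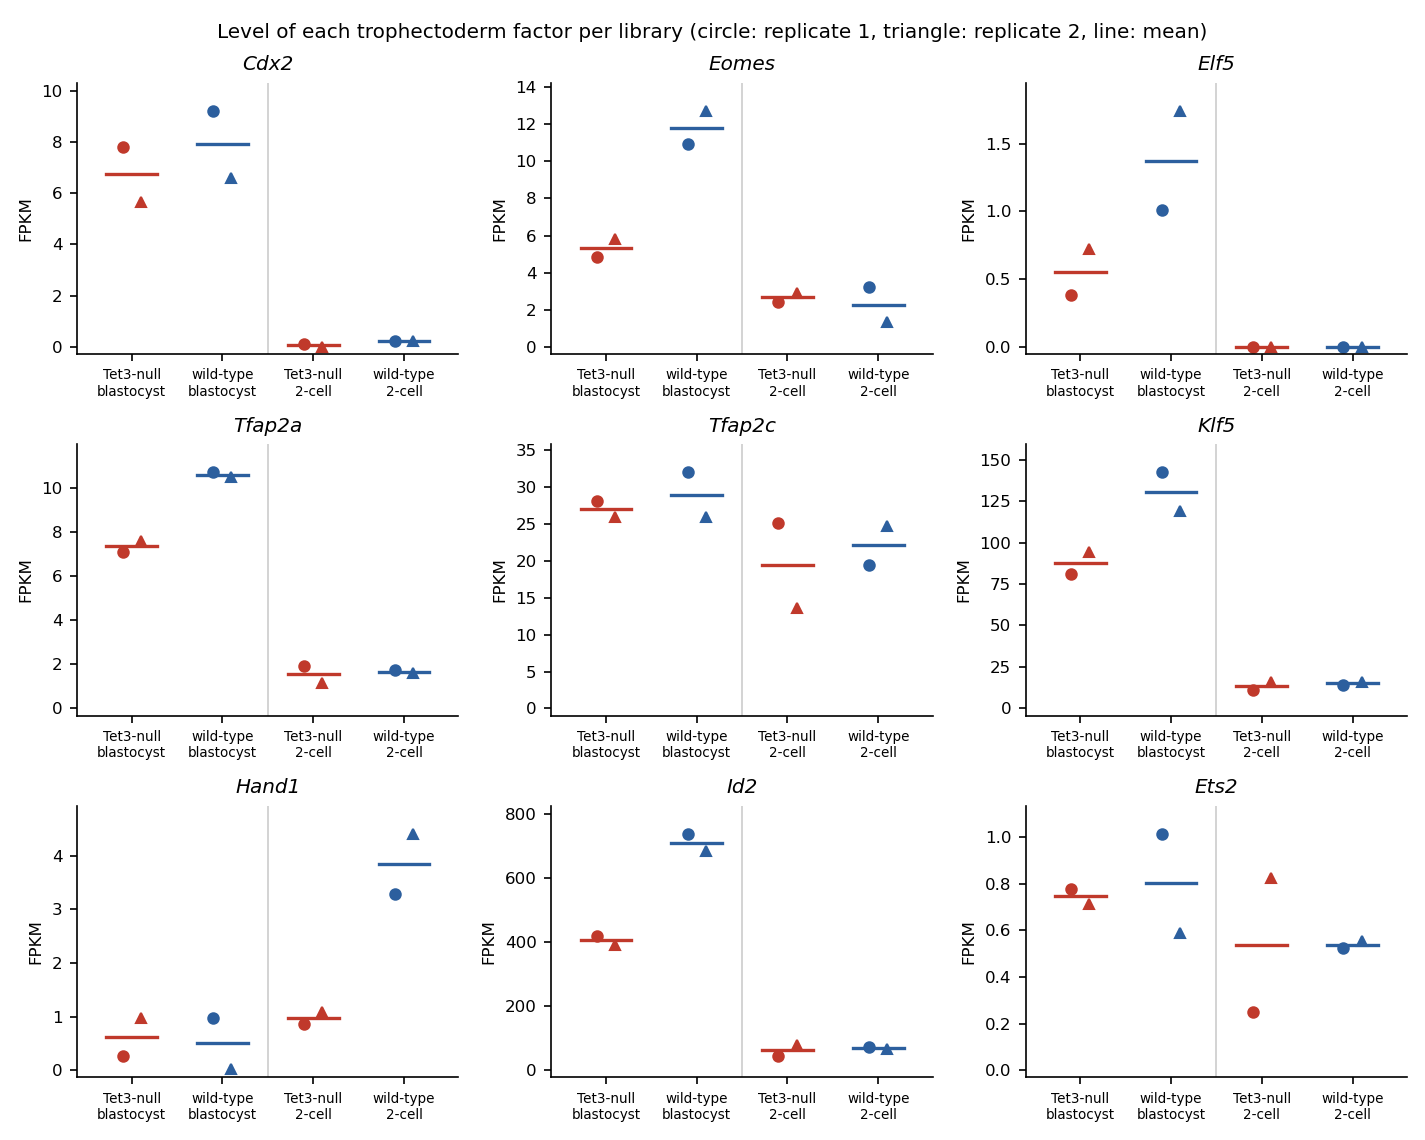
FPKM of the 9 trophectoderm factors in each library, on linear axes that differ between genes, with Tet3-null in red, wild-type in blue, circles for replicate 1, triangles for replicate 2 and lines for group means. Eomes, Elf5, Tfap2a, Klf5 and Id2 sit lower in every Tet3-null blastocyst library than in any wild-type one, and Hand1 does so in 2-cell embryos.

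The levels of the members spanned a wide range and their order depended on stage. In Tet3-null blastocysts Id2 was highest at 405 ± 20.6 FPKM (SD, n = 2), followed by Klf5 at 87.5 ± 9.37, Tfap2c at 27.0 ± 1.57, Tfap2a at 7.35 ± 0.341, Cdx2 at 6.73 ± 1.501 and Eomes at 5.32 ± 0.699 FPKM, and Cdx2 overlapped with each of its neighbours. Ets2, Hand1 and Elf5 came last, at means of 0.746, 0.612 and 0.554 FPKM, and neighbours among these 3 overlapped. In wild-type blastocysts Id2 was at 710.0 ± 38.0, Klf5 at 130.5 ± 16.6 and Tfap2c at 29.0 ± 4.25 FPKM, but Eomes came next at 11.8 ± 1.27 FPKM, above Tfap2a at 10.6 ± 0.148 and Cdx2 at 7.90 ± 1.85 FPKM. Elf5, Ets2 and Hand1 followed at means of 1.38, 0.801 and 0.499 FPKM, again overlapping between neighbours. In 2-cell embryos Id2, Tfap2c and Klf5 led in both genotypes. The fourth place was held by Eomes in Tet3-null and by Hand1 in wild-type 2-cell embryos.

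Blastocysts of both genotypes had more transcript of most members than 2-cell embryos, in Tet3-null by a called rise in 6 of the 8 genes tested and in wild-type by a called rise in 6 and a called fall in 1. Over all genes tested, 38.9% rose and 35.1% fell between the stages in Tet3-null embryos, and 35.8% rose and 38.4% fell in wild-type, so changes between the stages were common. Among the 5 members at 1 FPKM or more in all libraries, 4 rose in each genotype, against 40% of all such genes in Tet3-null and 36.2% in wild-type embryos. The median log2 difference of the members was 1.26 in Tet3-null and 2.08 in wild-type embryos, against 0.09 and -0.08 over all genes.

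Id2 and Klf5 rose most in FPKM. Id2 measured 420.0 and 391 FPKM in the Tet3-null blastocysts, against 43.7 and 79.1 FPKM in Tet3-null 2-cell embryos, a 6.60-fold rise (log2 change 2.76, SE 0.25, limma adjusted p = 5.44e-05). In wild-type embryos it was at 737 and 683 FPKM in blastocysts, against 71.6 and 64.9 FPKM at the 2-cell stage, a 10.4-fold rise (log2 change 3.36, SE 0.25, limma adjusted p = 2.31e-05). No blastocyst library came near a 2-cell library, and Id2 exceeded 97.1% to 98.5% of the genes tested in blastocysts. Klf5 measured 80.9 and 94.2 FPKM in the Tet3-null blastocysts, against 10.99 and 15.7 FPKM in Tet3-null 2-cell embryos (6.56-fold). Wild-type values were 142 and 119 FPKM in blastocysts and 14.1 and 16.2 FPKM in 2-cell embryos (8.63-fold), and both rises of Klf5 were called.

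Cdx2 was close to absent at the 2-cell stage. It measured 7.79 and 5.67 FPKM in the Tet3-null blastocysts, against 0.124 and 0 FPKM in Tet3-null 2-cell embryos, and 9.21 and 6.60 FPKM in wild-type blastocysts, against 0.227 and 0.238 FPKM in wild-type 2-cell embryos. The log2 rise was 2.85 in Tet3-null and 2.84 in wild-type embryos (SE 0.23 in each), called in both. With 2-cell values so near 0, its size depends on the 1 FPKM added before the logarithm. With 0.1 added instead it was 5.49 in Tet3-null and 4.57 in wild-type embryos, so the likeness of the values does not show an equal fold. Elf5 was listed at 0 in all 4 of the 2-cell libraries and reached at most 1.74 FPKM in blastocysts, so no fold is given.

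Of the AP-2 factors, Tfap2a rose in both genotypes and Tfap2c was already well above it at the 2-cell stage. Tfap2a measured 7.11 and 7.59 FPKM in the Tet3-null blastocysts, against 1.94 and 1.14 FPKM in Tet3-null 2-cell embryos (4.77-fold), and 10.7 and 10.5 FPKM in wild-type blastocysts, against 1.76 and 1.59 FPKM in wild-type 2-cell embryos (6.33-fold). Both rises were called. Tfap2c was already at 13.7 to 25.1 FPKM in the 2-cell libraries and at 25.9 to 32.02 FPKM in blastocysts, where it was 1.39-fold higher in Tet3-null and 1.31-fold higher in wild-type embryos. Neither difference was called (limma adjusted p = 0.137 and 0.259), although the stages did not overlap in either genotype, as was the case for 86.1% of all genes in Tet3-null and 89.3% in wild-type embryos. When FPKM was rescaled to 1 fixed total per library, a setting chosen after seeing the data, Tfap2c turned slightly lower in blastocysts of both genotypes (log2 difference -0.04 in Tet3-null and -0.21 in wild-type).

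Eomes was already transcribed at the 2-cell stage and rose in both genotypes. Tet3-null blastocysts had 4.83 and 5.82 FPKM, against 2.41 and 2.91 FPKM in Tet3-null 2-cell embryos, a 2.00-fold rise (log2 change 0.79, SE 0.29, limma adjusted p = 0.0422). Wild-type blastocysts had 10.9 and 12.7 FPKM, against 3.22 and 1.32 FPKM in wild-type 2-cell embryos, a 5.22-fold rise (log2 change 2.03, SE 0.29, limma adjusted p = 0.000561). The test of the difference between these rises was not called (log2 -1.25, SE 0.41, limma adjusted p = 0.258). The rise in Tet3-null embryos was 0.34 to 0.97 on the log2 scale over 16 other settings, with limma adjusted p up to 0.379. The call held in 4 of them. It was lost without either Tet3-null 2-cell library or any blastocyst library, with adjusted p of 0.0681 to 0.175.

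Hand1 ran the other way. It measured 0.259 and 0.966 FPKM in the Tet3-null blastocysts, against 0.853 and 1.09 FPKM in Tet3-null 2-cell embryos, which overlapped and was not called. Wild-type blastocysts had 0.972 and 0.0252 FPKM, against 3.29 and 4.40 FPKM in wild-type 2-cell embryos, and this fall was called (log2 change -1.76, SE 0.35, limma adjusted p = 0.00308). The E-box CANNTG, which Hand1 and its partners bind and which reads the same on both strands, was found 4 times in the first Elf5 window and once each in the second and in those of Id2 and Cdx2, and 66.2% of all promoter windows hold at least 1. Ets2 stayed between 0.250 and 1.01 FPKM in all 8 libraries and was not tested.

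**Figure D2:**
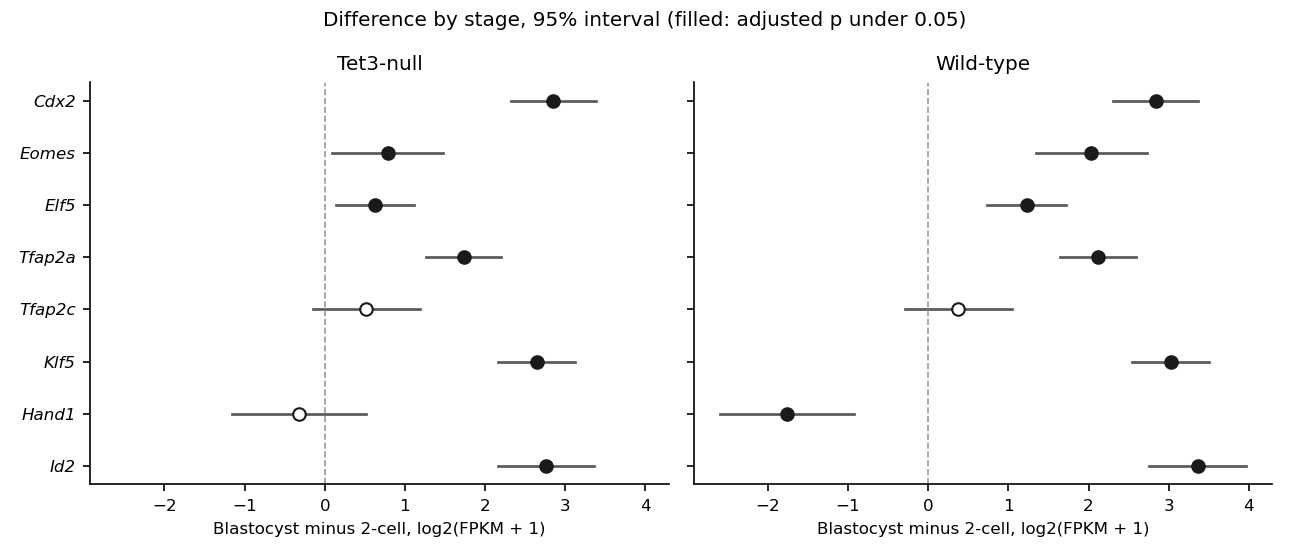
Blastocyst minus 2-cell difference in log2(FPKM + 1) for the 8 members tested, in Tet3-null (left) and wild-type embryos (right), with 95% intervals from limma. Cdx2, Klf5 and Id2 lie furthest to the right in both panels, and Hand1 is the member on the left of 0.

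In blastocysts, 5 of the 9 factors had Tet3-null values that all lay below the wild-type values: Eomes, Id2, Elf5, Klf5 and Tfap2a. Their mean FPKM was between 1.44 and 2.48 times as high in wild-type. None passed the adjusted threshold, and 0 of the 8 members tested were called by limma, as were 0.0664% of all genes. At an unadjusted limma p under 0.05, 5 of the 8 were lower and 0 higher, against 3.57% of all genes lower and 1.89% higher. Groups did not overlap, with Tet3-null lower, for 25.3% of all genes. Elf5 passed the filter only through the group in which it was higher. Among the 5 members at 1 FPKM or more in all libraries, 4 were lower at that level and 0 higher, against 3.6% of all such genes, and the same 4 did not overlap between genotypes, as did 27.8% of such genes in that direction. The median log2 difference over the members was -0.52, against -0.02 over all genes. In pools of whole embryos, fewer trophectoderm cells and less transcript per cell cannot be told apart.

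Eomes had the largest difference on the log2 scale. It measured 4.83 and 5.82 FPKM in the Tet3-null blastocysts, against 10.9 and 12.7 FPKM in wild-type blastocysts, 2.22 times as high in wild-type (log2 difference -1.02, SE 0.29, 95% interval -1.71 to -0.33, limma adjusted p = 0.638). The gap between the groups was wider than the distance between libraries of either group. Over the 16 other settings the log2 difference stayed between -1.14 and -0.91 and was called in 0, with adjusted p of 0.259 to 1.

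Id2, the most abundant member, measured 420.0 and 391 FPKM in the Tet3-null blastocysts, against 737 and 683 FPKM in wild-type blastocysts, 1.75 times as high in wild-type (log2 difference -0.81, SE 0.25, 95% interval -1.41 to -0.21, limma adjusted p = 0.724). All 4 libraries lay near their group mean and the groups were far from overlapping. The letters CCAAT, bound by Nfy, were found on either strand 3 times in the Id2 window, 2 times in that of Eomes and once in that of Cdx2, and 33.8% of all promoter windows hold them. The adjusted p was 0.115 to 1 over the other settings, lowest without Tet3-null 2-cell replicate 2 (0.115) or replicate 1 (0.116), which enter only through the shared spread.

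Klf5 measured 80.9 and 94.2 FPKM in the Tet3-null blastocysts, against 142 and 119 FPKM in wild-type blastocysts, 1.49 times as high in wild-type (log2 difference -0.57, SE 0.20, limma adjusted p = 0.860). Tfap2a measured 7.11 and 7.59 FPKM in the Tet3-null pools, against 10.7 and 10.5 FPKM in wild-type blastocysts, 1.44 times as high in wild-type (log2 difference -0.47, SE 0.20, limma adjusted p = 0.913). Both genes kept apart by genotype, Tfap2a with the tighter replicates. Elf5 was low in every library, at 0.385 and 0.723 FPKM in Tet3-null and 1.01 and 1.74 FPKM in wild-type blastocysts (log2 difference -0.60, SE 0.21, limma adjusted p = 0.845). At such levels the log2(FPKM + 1) scale understates the ratio of means, which was 2.48.

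The remaining members did not separate the blastocyst groups. Cdx2 measured 7.79 and 5.67 FPKM in the Tet3-null pools, against 9.21 and 6.60 FPKM in wild-type blastocysts, with a log2 difference of -0.20 and a 95% interval from -0.73 to 0.33. Tfap2c measured 28.1 and 25.9 FPKM in the Tet3-null pools, against 32.02 and 26.0 FPKM in wild-type, with a log2 difference of -0.09 and an interval from -0.76 to 0.58. These intervals are wide enough to hold differences as large as those of Klf5 and Tfap2a, so the values do not show that Cdx2 and Tfap2c were equal between genotypes. For Hand1 the libraries of each group differed more from each other than the groups did, at 0.259 and 0.966 FPKM in Tet3-null and 0.972 and 0.0252 FPKM in wild-type. Ets2 measured 0.779 and 0.712 FPKM in the Tet3-null pools and 1.01 and 0.590 FPKM in wild-type blastocysts.

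**Figure D3:**
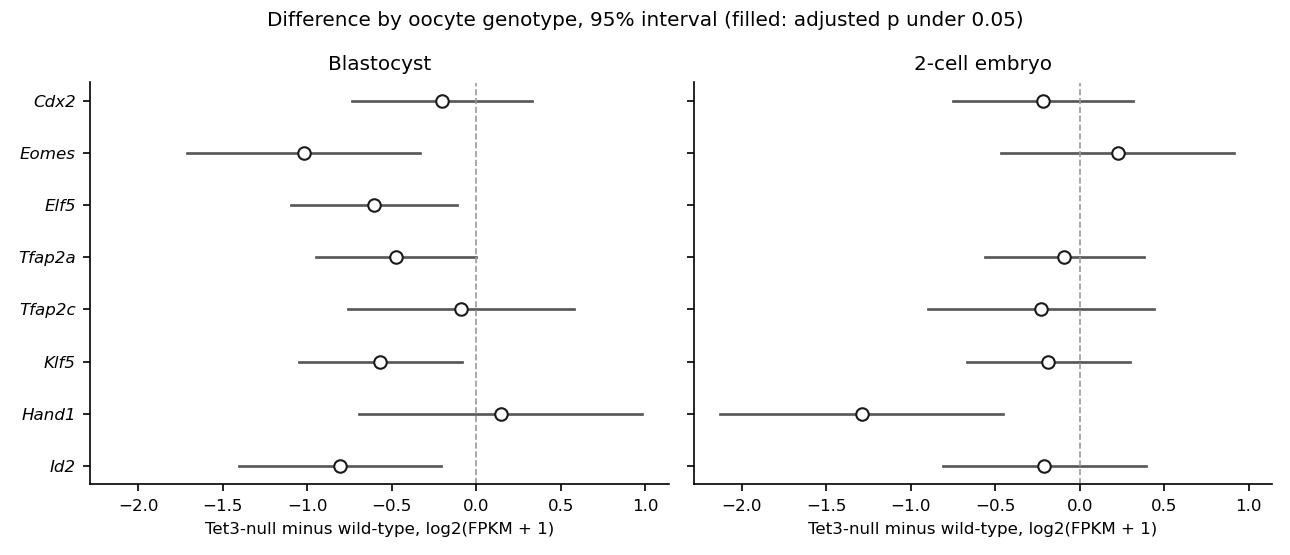
Tet3-null minus wild-type difference in log2(FPKM + 1), in blastocysts (left) and 2-cell embryos (right), with 95% intervals from limma before adjustment over genes. Elf5 was listed at 0 in every 2-cell library and has no point there. Eomes is lowest in blastocysts at -1.02 and Hand1 is lowest in 2-cell embryos at -1.29, and no point is filled since none was called.

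At the 2-cell stage Hand1 was the member with a clear gap between genotypes. It measured 0.853 and 1.09 FPKM in the Tet3-null pools, against 3.29 and 4.40 FPKM in wild-type 2-cell embryos, 3.97 times as high in wild-type. The log2 difference was -1.29 (SE 0.35, 95% interval -2.13 to -0.45, limma adjusted p = 0.0941), and over the other 16 settings it stayed between -1.88 and -1.09 with adjusted p of 0.0690 to 0.376. No member was called by limma at this stage, where 2.72% of all genes were, and Hand1 was the 1 lower, of 7 members with any transcript, at an unadjusted p under 0.05, where 18.3% of all genes were lower. Of all genes, 34.9% were lower in Tet3-null with no overlap. Hand1 and Cdx2 were among them, Cdx2 at 0.124 and 0 FPKM in Tet3-null and 0.227 and 0.238 FPKM in wild-type, values too low to carry a fold. Under the deposited scaling all genes together were shifted downward in Tet3-null 2-cell embryos, with a median log2 difference of -0.17, and the median of the members was -0.20.

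The members that were lower in Tet3-null blastocysts showed no such gap in 2-cell embryos. Id2 measured 43.7 and 79.1 FPKM in the Tet3-null pools and 71.6 and 64.9 FPKM in wild-type 2-cell embryos, and Klf5 measured 10.99 and 15.7 FPKM in the Tet3-null pools and 14.1 and 16.2 FPKM in wild-type. Eomes, at 2.41 and 2.91 FPKM in Tet3-null and 3.22 and 1.32 FPKM in wild-type, and Tfap2a, at 1.94 and 1.14 FPKM in Tet3-null and 1.76 and 1.59 FPKM in wild-type, overlapped as well. The direction in 2-cell embryos turned with the scaling or with single libraries for Id2, Klf5, Tfap2a and Tfap2c, and with wild-type replicate 2 for Eomes. The difference of the genotype effect between stages was called for 0 of the 8 members by limma, as it was for 0.14% of all genes. At an unadjusted limma p under 0.05 it was negative for Eomes and positive for Hand1, against 3.91% and 10.4% of all genes (Hand1 log2 1.44, SE 0.50, limma adjusted p = 0.277). For Id2 it was -0.60 (SE 0.36, limma adjusted p = 0.478). Without Tet3-null 2-cell replicate 1 it was -1.02, in a fit that left only replicate 2, which stood apart, in that group.

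Relatives of the members from the same gene families were mixed in direction in Tet3-null blastocysts. Of 21 relatives, 13 passed the filter, and their median log2 difference in blastocysts was 0.03, with 7 higher and 6 lower and 0 called by limma, nor any at an unadjusted p under 0.05. Id3, which like Id2 blocks basic helix-loop-helix factors, measured 203 and 179 FPKM in the Tet3-null pools, against 110 and 131 FPKM in wild-type blastocysts, opposite in sign to Id2 (log2 difference 0.67, limma adjusted p = 1). Id1 fell between the stages where Id2 rose (both called), and measured 2.87 and 2.05 FPKM in the Tet3-null blastocysts, against 74.6 and 47.0 FPKM in Tet3-null 2-cell embryos. Among epithelial Ets factors, Elf3 was far above Elf5, at 419.9 and 339 FPKM in Tet3-null and 453 and 439.8 FPKM in wild-type blastocysts. Ehf, another relative of Elf5, measured 6.81 and 15.5 FPKM in the Tet3-null pools and 7.18 and 8.13 FPKM in wild-type 2-cell embryos and below 0.1 FPKM in blastocysts.

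Of the Klf relatives, Klf6 measured 31.4 and 27.3 FPKM in the Tet3-null pools and 35.6 and 28.2 FPKM in wild-type blastocysts, and Klf4 10.9 and 17.0 FPKM in Tet3-null and 11.6 and 10.9 FPKM in wild-type. Tfap2e was the relative of the AP-2 factors with most transcript at the 2-cell stage, at 19.1 and 14.9 FPKM in Tet3-null and 18.1 and 16.2 FPKM in wild-type, and fell to 1.49 to 2.27 FPKM in the blastocyst libraries of both genotypes. Cdx4, a relative of Cdx2, measured 1.14 and 0.773 FPKM in the Tet3-null pools and 2.11 and 2.34 FPKM in wild-type 2-cell embryos, where its groups did not overlap (limma adjusted p = 0.0685), and below 0.1 FPKM in blastocysts. Id4 ran the other way at that stage, at 2.85 and 4.29 FPKM in Tet3-null, against 0.931 and 1.77 FPKM in wild-type (log2 difference 0.96, limma adjusted p = 0.0779), and was below 0.1 FPKM in blastocysts. Klf2 was at 8.46 and 8.67 FPKM in Tet3-null, against 21.6 and 19.3 FPKM in wild-type 2-cell embryos (log2 difference -1.16, limma adjusted p = 0.171), and overlapped in blastocysts at 5.34 and 16.6 FPKM in Tet3-null and 9.89 and 6.76 FPKM in wild-type. Elf1, an Ets factor, stayed between 3.08 and 8.97 FPKM in all libraries. Tfap2b was below 0.2 FPKM in blastocysts and reached at most 2.00 FPKM in 2-cell embryos. Tbx3, a T-box relative of Eomes, measured 28.2 and 28.3 FPKM in the Tet3-null pools and 25.2 and 20.9 FPKM in wild-type blastocysts.

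Other regulators of trophectoderm fate and genes of its epithelium were read from lists of 33 and 26 genes. The 31 regulators tested had a median log2 difference of -0.13 in blastocysts. Their list also holds genes of Hippo signalling, which outer cells shut off, so this median does not read as more or less of the trophectoderm program. Of these regulators, 0 were called by limma and 1 was lower at an unadjusted p under 0.05, as were 3.57% of all genes. That gene was Gata2, at 27.5 and 30.0 FPKM in Tet3-null, against 50.3 and 48.3 FPKM in wild-type blastocysts (log2 difference -0.76, SE 0.16, limma adjusted p = 0.484). The letters GATAA, a core that Gata factors bind, were found on either strand once in the second Elf5 window and in no other member's window, and 22.6% of all promoter windows hold them. Tead4 measured 15.7 and 15.0 FPKM in the Tet3-null pools and 19.5 and 17.6 FPKM in wild-type, and Yap1 11.8 and 13.0 FPKM in Tet3-null and 14.2 and 11.1 FPKM in wild-type. Of the 26 epithelial genes, 6 were lower and 0 higher at an unadjusted p under 0.05, where 3.57% of all genes were lower and 1.89% higher, and 0 were called by limma (median -0.16). For 14 of the 26 all Tet3-null blastocyst values lay below all wild-type values, as for 25.3% of all genes, for 5 they lay above, and the other 7 overlapped. Krt8, a keratin of this epithelium, measured 571 and 527 FPKM in the Tet3-null pools, against 1078 and 958 FPKM in wild-type blastocysts, and Aqp8, a water channel, 16.2 and 12.1 FPKM in Tet3-null, against 33.2 and 36.8 FPKM in wild-type. The aquaporin gene Aqp3 was among the 7 that overlapped, at 194 and 153 FPKM in Tet3-null and 195 and 172 FPKM in wild-type. Krt19, also a keratin, was among the 5 above, at 5.63 and 8.75 FPKM in Tet3-null, against 2.48 and 5.52 FPKM in wild-type. Aqp9, another aquaporin, was too, at 48.9 and 44.8 FPKM in Tet3-null, against 40.4 and 37.9 FPKM in wild-type. The choice of Krt8, Krt19, Aqp8, Aqp9, Tead4, Yap1 and Aqp3 followed a look at their values.

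Between the stages nearly all epithelial genes rose, while the regulators were more mixed. Over all genes tested, 38.9% were called as rising and 35.1% as falling in Tet3-null embryos, and 35.8% and 38.4% in wild-type. Of the 26 epithelial genes, 25 rose in Tet3-null and 26 in wild-type embryos, led in each by Fabp3 (log2 change 8.95 in Tet3-null and 8.84 in wild-type) and Krt18 (8.40 in Tet3-null and 8.06 in wild-type). Of the 31 regulators, 18 rose in each genotype, and 5 fell in Tet3-null and 6 in wild-type embryos. Gata3 rose most, by 3.94 in Tet3-null and 5.20 in wild-type embryos, while Ascl2 and Yap1 fell most (Ascl2 by 2.95 in Tet3-null and 2.47 in wild-type, Yap1 by 2.55 in Tet3-null and 2.69 in wild-type).

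Markers of the other blastocyst lineages were read beside these values. Of 16 epiblast markers, 8 had positive and 8 negative differences (median log2 difference 0.00), with 0 called by limma and 1 lower at an unadjusted p under 0.05, and no marker was at 0 in any blastocyst library. They summed to 5703 and 5912 FPKM in Tet3-null, against 5805 and 6180 FPKM in wild-type blastocysts, but most of each sum was Dppa5a, at 5018 and 5182 FPKM in Tet3-null and 5051 and 5483 FPKM in wild-type. Primitive endoderm markers were mostly lower in Tet3-null blastocysts: of 11 tested, 10 had negative differences (median -0.29), 3 were lower at an unadjusted p under 0.05, where 3.57% of all genes were, and 0 were called by limma. Without overlap, 7 were lower, as were 25.3% of all genes, and 1 was higher. Lama1, a laminin chain gene of the basement membrane, had 1.31 and 0.943 FPKM in Tet3-null, against 4.55 and 4.37 FPKM in wild-type, and Serpinh1, a collagen chaperone gene, 6.90 and 4.22 FPKM in Tet3-null, against 20.3 and 13.0 FPKM in wild-type. Gata6, the 1 marker that was higher, had 109 and 119 FPKM in Tet3-null blastocysts, against 107 and 96.4 FPKM in wild-type. The 15 markers listed summed to 222 and 225 FPKM in Tet3-null and 262 and 223 FPKM in wild-type, sums made up mainly of Gata6 and Lrp2. Dppa5a, Lama1, Serpinh1, Gata6 and Lrp2 were picked with their values known. The 26 epithelial genes summed to 11160 and 10410 FPKM in Tet3-null, against 13361 and 14015 FPKM in wild-type blastocysts. Of 12 cumulus and granulosa markers, Gja1 alone reached 1 FPKM in blastocysts, and Amh was listed at 0 in every library. Gja1 and Tnfaip6 did so in 2-cell libraries, Tnfaip6 at 14.3 to 29.5 FPKM and Gja1 at lower levels than in blastocysts. The part of cell composition in the levels of the members was not tested.

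**Figure D4:**
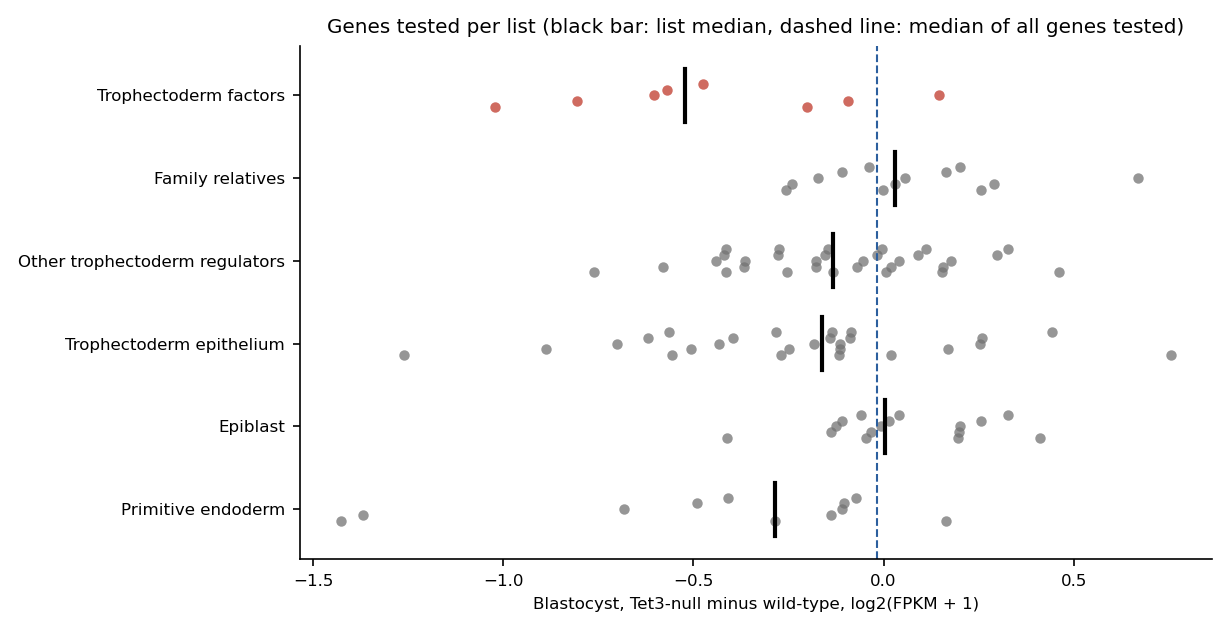
Tet3-null minus wild-type difference in blastocysts, in log2(FPKM + 1), for each gene tested in 6 lists (points, spread vertically for legibility), with the list median as a black bar and the median of all genes at -0.02 as a dashed line. The medians are -0.52 for the members, -0.29 for primitive endoderm markers, -0.16 for epithelial genes, -0.13 for regulators, 0.00 for epiblast markers and 0.03 for relatives.

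At the 2-cell stage the same lists held 5 called genes, whose calls rest in part on the settings. Gata2 measured 8.59 and 6.73 FPKM in the Tet3-null pools, against 31.7 and 28.8 FPKM in wild-type, and Gata3 rose to 9.26 and 12.3 FPKM in Tet3-null, against 5.28 and 5.26 FPKM in wild-type. Lgals3, an epithelial galectin, measured 2.90 and 3.58 FPKM in the Tet3-null pools, against 18.6 and 21.3 FPKM in wild-type. The others were Zfp42, a pluripotency gene, at 28.1 and 24.8 FPKM in Tet3-null, against 42.3 and 50.8 FPKM in wild-type, and Gja1, connexin 43, at 56.5 and 57.6 FPKM in Tet3-null, against 88.7 and 84.0 FPKM in wild-type. Thus 1 regulator rose and 1 fell of 31 tested, and 1 of 26 epithelial genes, 1 of 16 epiblast genes and 1 of 2 cumulus markers tested fell. All 5 kept their direction under the 16 other settings, in which Lgals3 was called in 12, Gata2 in 11, Gata3 in 6, Zfp42 in 4 and Gja1 in 3. None was called when the 2-cell libraries were fitted alone (limma adjusted p = 0.376 to 0.388). Without wild-type 2-cell replicate 2 none was called either (adjusted p of 0.0702 to 0.146), nor without wild-type blastocyst replicate 1 (0.0531 to 0.127) or replicate 2 (0.0516 to 0.127). Lgals3 alone was called without wild-type 2-cell replicate 1. Over all genes, 0.613% were called higher and 2.1% lower, and no member was among them. That split depended on the scaling, with 83 higher and 285 lower as deposited, 83 higher and 64 lower with median-of-ratios scaling, and 94 higher and 104 lower with quantile normalization.

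Genes whose pattern over the 8 libraries was most like that of each member were found by the root mean square difference of log2(FPKM + 1) after centring each gene on its mean. Nearest to Eomes was Atp1b1, the beta subunit of the sodium pump of the trophectoderm, at a distance of 0.215. It measured 20.4 and 19.9 FPKM in the Tet3-null pools, against 35.7 and 31.0 FPKM in wild-type blastocysts. Id2 was nearest to Rab1b at 0.113 and Dnajc19 at 0.162, and Klf5 to Marcksl1 at 0.13 and Neat1 at 0.141. Tfap2a was nearest to Zfp59 at 0.0849 and Sec31a at 0.106, Tfap2c to Ipo7 at 0.0607 and Clk2 at 0.0705, and Cdx2 to Acss1 at 0.108 and Eef2 at 0.109. The second gene for Eomes was Mmgt2 at 0.227. Elf5 was nearest to Xpnpep2 at 0.0955 and Pcmtd2 at 0.115, and Hand1 to Ctnnbip1 at 0.267 and Cst6 at 0.285. Cst6 measured 1.602 and 1.78 FPKM in Tet3-null 2-cell embryos, against 4.57 and 4.92 FPKM in wild-type. Among the members the closest pair was Klf5 and Id2 at 0.207, and the most distant was Hand1 and Id2 at 2.14. These distances describe 8 libraries that share 2 stages and 2 genotypes. Genes chosen as nearest share the pattern of their member by that choice, so their values are no separate evidence.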

How the data were processed

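Whole embryos were measured by RNA-seq in 8 libraries, from amplified cDNA made with a low-input SMARTer kit and a library kit that does not mark strand, per the labels. The authors deposited FPKM per gene, and the submitters' processing notes name Cufflinks 2.2.0, Bowtie2 2.1.0 and TopHat2 2.0.10 and the build mm9. The sources used here do not give the annotation or settings. Groups came from sample titles. log2(FPKM + 1) of 13549 genes was fitted in limma 3.58.1 (R 4.3.3) with 4 group means over all 8 libraries and a prior variance that follows expression (degrees of freedom 4 residual, 3.07 prior), and the fit was tested on simulated data. Exact permutation of 2 against 2 libraries cannot reach 0.05 and was not used. Alternatives changed the pseudocount, filter, scaling, libraries in the fit, replicate block, variance trend and single libraries.

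The members and lists were chosen with earlier results of these data known. The lists held 155 entries, of which 2 were not found. Every member is described. By rule, the text names relatives that reached 1 FPKM, the 2 genes nearest to each member, all genes of the other lists called by genotype, and a few of the many called between stages, among those with the largest changes. Others were named by choice, as stated. Absolute read totals are unknown, so no counting interval is given.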

Additional observations from a re-analysis of the deposited data

How the results depend on the processing

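No member was called by genotype at either stage under any of the 16 alternatives, and the counts called between stages were 4 to 6 in Tet3-null (5 with the replicate block) and 7 in wild-type embryos (7 with the block). Leaving out a library leaves 1 in its group, which is then assumed to vary like the others. Without Tet3-null 2-cell replicate 1, many more genes were called for the difference of the genotype effect between stages than in the reported fit. A member's call for that difference in this fit does not set the member apart from other genes. The difference of the genotype effect between stages was called for 0 to 1 members when single libraries were left out, the 1 being Id2 without Tet3-null 2-cell replicate 1. The Elf5 rise in Tet3-null embryos was lost without Tet3-null 2-cell replicate 1 (adjusted p = 0.0577), Tet3-null 2-cell replicate 2 (0.0582) or Tet3-null blastocyst replicate 2 (0.1504), and Tfap2c was called without Tet3-null 2-cell replicate 1 (log2 change 0.93, adjusted p = 0.00641). The replicate block ended the call of Eomes between stages in Tet3-null embryos (adjusted p = 0.0614) and changed no other call of a member, but ended the 2-cell genotype calls of Gata3, Zfp42 (adjusted p = 0.0812 each) and Gja1 (0.0875); replicate numbers do not pair the libraries, since deviations of same-numbered libraries correlated at -0.0756 to 0.0184 between groups. Median-of-ratios scaling moved the median of all genes in 2-cell embryos to 0.02. It turned the genotype difference there to 0.077 for Tfap2a, 0.035 for Tfap2c, 0.077 for Klf5 and 0.068 for Id2. Quantile normalization gave 0.15 for Tfap2a and 0.014 for Klf5. The difference of the genotype effect between stages turned to -0.059 for Cdx2 with quantile normalization and -0.074 for Tfap2c with median-of-ratios scaling. Rescaling to 1 fixed total per library, added after seeing the data, moved the median of all genes between stages to -0.37 in Tet3-null and -0.59 in wild-type embryos, and turned Tfap2c to -0.043 and -0.21. With single libraries left out, the genotype difference in 2-cell embryos ranged from -0.21 to 0.66 for Eomes, -0.32 to 0.14 for Tfap2a, -0.65 to 0.18 for Tfap2c, -0.42 to 0.053 for Klf5 and -0.63 to 0.21 for Id2. In blastocysts it ranged from -0.42 to 0.012 for Cdx2, -0.24 to 0.053 for Tfap2c and -0.33 to 0.62 for Hand1. The difference of the genotype effect between stages ranged from -0.20 to 0.23 for Cdx2 and -0.28 to 0.55 for Tfap2c. Over all genes, the count called by genotype in 2-cell embryos was 368 in the reported fit (83 higher, 285 lower), 147 with median-of-ratios scaling (83 higher, 64 lower), 198 with quantile normalization (94 higher, 104 lower), 243 with a pseudocount of 0.1, 578 with the fixed total, 31 with the replicate block, 3 with the 2-cell libraries alone, and 8 to 3453 with single libraries left out, highest without Tet3-null 2-cell replicate 1. The count called for the difference of the genotype effect between stages was 19. Settings that kept all libraries gave from 13, with the replicate block, to 35, with no filter. It moved further when either Tet3-null 2-cell library was left out, in fits that leave 1 library in that group. Where no construction is named, the cause was not tested. The 2 libraries per group and the unknown read totals limit what can be said of Elf5, Hand1, Ets2 and 2-cell Cdx2. All were near or below 1 FPKM, except Hand1 in wild-type 2-cell embryos, at 3.29 and 4.40 FPKM.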

Other observations

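Several genes of later trophoblast and placenta had more transcript in 2-cell embryos than in blastocysts. Of 7 such genes tested, 1 rose and 4 fell between the stages in Tet3-null embryos, and 1 rose and 5 fell in wild-type. Of all genes tested, 38.9% rose and 35.1% fell in Tet3-null embryos, and 35.8% rose and 38.4% fell in wild-type, so falls were common. Phlda2, an imprinted regulator of placental growth, measured 4.02 and 7.45 FPKM in the Tet3-null blastocysts, against 553 and 315 FPKM in Tet3-null 2-cell embryos, and 14.1 and 7.66 FPKM in wild-type blastocysts against 530.5 and 807 FPKM in wild-type 2-cell embryos. Esx1, a homeobox gene of the placenta, was below 0.5 FPKM in all blastocyst libraries, and at 18.6 and 20.6 FPKM in Tet3-null and 19.4 and 45.8 FPKM in wild-type 2-cell embryos. Prl3b1, a placental lactogen gene, measured 0.877 and 1.51 FPKM in the Tet3-null pools and 4.06 and 6.11 FPKM in wild-type 2-cell embryos (log2 difference -1.47, limma adjusted p = 0.0528), the direction of Hand1 at that stage. In blastocysts it measured 2.37 and 1.45 FPKM in the Tet3-null pools and 0.416 and 1.07 FPKM in wild-type (log2 difference 0.75, limma adjusted p = 0.912), and these 3 genes were picked with their values known.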
